A study of Homo sapiens with 6 samples.

Results

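The 10 genes described here, ATOH1, GFI1, TFF1, TFF2, TFF3, SPINK4, REG4, FCGBP, AGR2 and AGR3, are genes of goblet cells and of the secretory lineage of the intestine. They were taken by symbol, through their Ensembl identifiers in GENCODE release 44, from the 60676 genes listed in each of the normalized count tables, and all 10 were found. The members were chosen by how they had moved in these same libraries, so their levels and fold changes are given as a description and without a p-value. RNA had been sequenced from HT29 cells, a human colon adenocarcinoma line labelled wild type, kept for 48 h in control medium (untreated), in histidine-depleted medium or in tryptophan-depleted medium, with 2 libraries per condition. RPMI was the base of the medium without histidine and DMEM F-12 that of the medium without tryptophan, both with dialyzed serum, and the base of the control medium is not named for the RNA-seq, so a difference from untreated cells, or between the depletions, cannot be told apart from an effect of the base medium. Whether the 2 samples of a condition came from separate cultures is not stated, so tests measure only the spread between these samples. The tryptophan depletion served in the study as a comparison for general amino acid stress.

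In the intestinal epithelium, secretory cells arise from progenitors in which Notch signalling is low. Notch acts through RBPJ to switch on HES1, which represses ATOH1, the basic helix-loop-helix factor that commits a progenitor to the secretory fate and binds E-box motifs. GFI1, a zinc finger repressor downstream of ATOH1, favours goblet and Paneth cells over enteroendocrine cells, and SPDEF drives goblet cell maturation. Goblet cells release mucins together with small trefoil peptides (TFF1, TFF2, TFF3), the Kazal-type protease inhibitor SPINK4, the lectin REG4 and the mucus protein FCGBP, while AGR2 is a disulfide isomerase of the endoplasmic reticulum needed for mucin folding and AGR3 is its close relative.

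Upstream sequences from RefSeq on GRCh38.p14 are shown for 3 members. The regulator ATOH1 and SPINK4 were lower under both depletions, and AGR2 was higher under tryptophan depletion. Each run is the 250 bases before the annotated start, 5′ to 3′ on the gene's strand, with E-boxes (CANNTG, N being any base) in capitals.
ATOH1: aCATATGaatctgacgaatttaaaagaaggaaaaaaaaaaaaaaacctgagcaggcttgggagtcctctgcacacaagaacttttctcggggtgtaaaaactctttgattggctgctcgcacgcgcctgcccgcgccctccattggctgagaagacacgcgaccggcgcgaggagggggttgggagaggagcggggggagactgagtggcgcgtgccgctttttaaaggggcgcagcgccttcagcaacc
SPINK4: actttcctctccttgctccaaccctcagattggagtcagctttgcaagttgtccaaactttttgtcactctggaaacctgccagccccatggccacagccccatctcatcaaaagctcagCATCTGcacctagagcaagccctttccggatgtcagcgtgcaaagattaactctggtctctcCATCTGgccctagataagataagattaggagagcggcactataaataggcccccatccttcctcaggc
AGR2: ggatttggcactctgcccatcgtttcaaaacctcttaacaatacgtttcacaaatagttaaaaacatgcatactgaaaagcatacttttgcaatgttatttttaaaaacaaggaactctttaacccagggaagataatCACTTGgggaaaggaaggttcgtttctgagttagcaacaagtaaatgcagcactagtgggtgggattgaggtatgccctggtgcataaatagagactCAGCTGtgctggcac
These windows lie at chr4:93828503-93828752 on the plus strand, chr9:33239917-33240166 on the plus strand and chr7:16805000-16805249 on the minus strand, and 0 of their bases fall in exons annotated by GENCODE. The ATOH1 window holds 1 E-box at position -249, counted from the base before the start as -1. SPINK4 holds 2, at -130 and -68, and AGR2 holds 2, at -112 and -15. The one at -15 reads CAGCTG, a case of the same motif that 14.0% of the 35116 RefSeq windows of this length hold, whereas 61.8% hold any CANNTG. An N-box (CACNAG, the motif of HES repressors, searched on both strands) was found in the ATOH1 window at -178 and in the AGR2 window at -62, -60 and -35. The hits at -62 and -60 overlap, being read from opposite strands of the same palindrome, so they are not separate sites. Of all windows 32.0% hold an N-box. The RBPJ core TGGGAA, present in 20.8% of all windows on either strand, was absent from these 3 windows. Sequences were matched for 7 of the 10 members, all but TFF1, TFF2 and TFF3, and the REG4 window was the only one of a member with a single start that had 0 E-boxes.

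The libraries held 46390819 to 64388876 reads, as recovered from the deposited values. These totals are above the average number of read pairs given for the samples, so whether a recovered read is 1 read or 1 pair is not known. All 10 markers of colon epithelium were expressed highly enough to be tested, but they were not steady, with 4 higher and 6 lower after histidine depletion (median log2 fold change -0.32) and 5 higher and 2 lower after tryptophan depletion (0.24). EPCAM, an epithelial surface protein, was between 26253 and 31026 normalized counts in all 6 libraries, and CDH17 was between 189 and 589. GPA33 and LGALS4, named here after their values were seen, were among the lower ones after histidine depletion. GPA33, a surface antigen of intestinal epithelium, had 78.7 and 75.6 normalized counts untreated, 2.71 and 10.2 without histidine and 36.3 and 27.5 without tryptophan, a log2 fold change of -3.59 after histidine depletion that was -2.80 without histidine-depleted replicate 1 and -4.38 without replicate 2. LGALS4, a galectin of the gut epithelium, fell by 1.57 on the log2 scale after histidine depletion (limma, adjusted p = 2.07e-17), with 0.11 (adjusted p = 0.078) after tryptophan depletion. Of the markers of other cells, PTPRC (leukocytes) and CDH5 (endothelium) stayed at or under 2.13 and 1.02 normalized counts, and COL1A2 (fibroblasts) had 0 reads in every library. Other such markers passed 10 normalized counts in some library. Among them were LYZ (12419 to 69381), CD14 (50.6 to 380), COL1A1 (27.1 to 69.6), PECAM1 (8.13 to 48.1), VWF (3.98 to 42.5) and HBB (0 to 13.2). The part of these epithelial and other markers in the results was not tested. Among goblet markers, ZG16 and CLCA1 were at or under 2.13 and 2.19 normalized counts in every library, so the label goblet rests here on the other genes. In RNA from whole cultures, fewer cells of a type and less RNA per cell cannot be told apart. The histidine-depleted libraries differed from each other in the strongly lowered genes. Replicate 2 was above replicate 1 in 6 of the 7 tested members with a log2 fold change under -1, and in 130 (75.1%) of all 173 genes called with a log2 fold change under -3, beside 54.0% of all genes tested. For tryptophan depletion the same counts were 0 of 4 members, 73 of 171 genes (42.7%) and 56.9%. Values without each library are therefore given wherever they turn a result.

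Per-library values below are reads scaled together over all 6 libraries, called normalized counts, and log2 fold changes are from limma on log2(normalized count + 1) of the deposited tables, with their SE. TFF2 stayed under the filter of a mean of 10 normalized counts, which left 9 of the 10 members tested, and a gene is called at a Benjamini-Hochberg adjusted p under 0.05 over all genes tested. After histidine depletion 8 of these 9 were called lower, 0 higher and FCGBP was not called. Among all 18288 genes tested, 77.3% were called, 39.1% higher and 38.2% lower. After tryptophan depletion 6 members were called lower (ATOH1, GFI1, TFF3, SPINK4, REG4 and AGR3), TFF1 and AGR2 were called higher, and FCGBP was not called, among 70.8% of 17960 genes called, 36.1% higher and 34.8% lower. The libraries of the groups did not overlap for 8 of the 9 tested members in either comparison, as for 88.1% of all genes in the histidine comparison and 84.1% in the tryptophan comparison. Since the members were chosen on these contrasts, nothing is read from their counts.

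**Figure D1:**
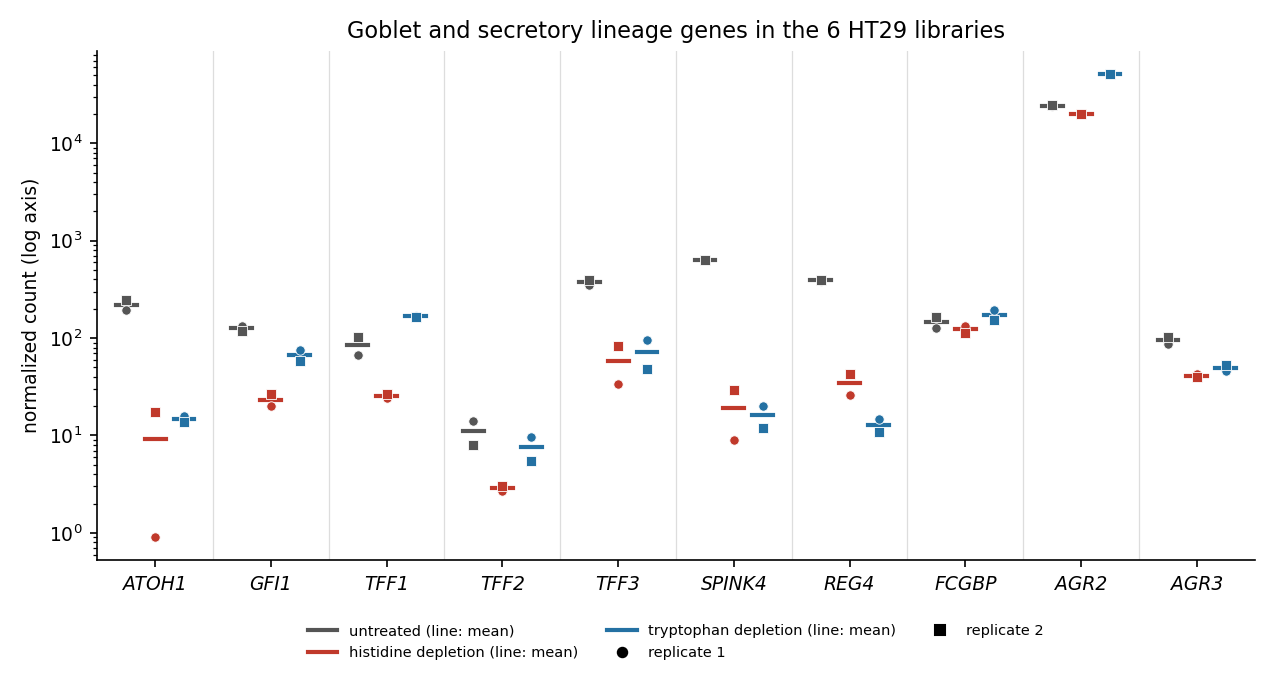
Normalized counts (reads scaled over all 6 libraries, log axis) of the 10 member genes in each library. Circles and squares are replicates 1 and 2, horizontal lines are means, and colours give the condition. SPINK4 is at 638 and 639 untreated and at most 29.5 under either depletion, while AGR2 reaches 51506 under tryptophan depletion.

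Both regulators were lower under both depletions. ATOH1 (chr4:93828753-93830964, a gene of a single exon) had 193 and 245 normalized counts in the untreated libraries, 0.903 and 17.3 without histidine and 16.0 and 13.7 without tryptophan. Every depleted library thus lay far below both untreated ones, and the histidine-depleted pair were far apart, with 1 and 17 reads behind them. The mean was 24.0-fold lower after histidine depletion, with a log2 fold change of -5.20 ± 0.54 that was -3.57 without histidine-depleted replicate 1 and -6.83 without replicate 2. After tryptophan depletion it was 14.8-fold lower, with a log2 fold change of -3.79 ± 0.22. GFI1 (chr1:92473043-92486925) had 134 and 117 normalized counts untreated, 19.9 and 26.5 without histidine and 74.7 and 58.6 without tryptophan. Its 3 conditions did not overlap, with tryptophan-depleted libraries in between. GFI1 was 5.40-fold lower after histidine depletion (log2 fold change -2.39 ± 0.22) and 1.90-fold lower after tryptophan depletion (-0.92 ± 0.18).

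The 3 trefoil genes lie side by side on chromosome 21, TFF3 at chr21:42311667-42315409, TFF2 at chr21:42346357-42350997 and TFF1 at chr21:42362282-42366535, all on the minus strand, and did not move alike. TFF3, the trefoil peptide of intestinal goblet cells, had 353 and 394 normalized counts untreated, 33.4 and 83.4 without histidine and 95.0 and 47.6 without tryptophan. All depleted libraries were below the untreated ones and the ranges of the depletions overlapped. The log2 fold change was -2.78 ± 0.24 after histidine depletion, between -2.14 and -3.43 with either of its libraries left out, and -2.46 ± 0.15 after tryptophan depletion. TFF1, the trefoil peptide of gastric surface cells, had 67.8 and 101 normalized counts untreated, 24.4 and 26.5 without histidine and 169.7 and 165 without tryptophan. It was 3.31-fold lower after histidine depletion (log2 fold change -1.66 ± 0.24) and 1.97-fold higher after tryptophan depletion (1.00 ± 0.16), with no overlap of the 3 conditions. TFF2, the spasmolytic peptide of gastric mucous neck cells, had 14.2 and 7.96 normalized counts untreated, 2.71 and 3.05 without histidine and 9.60 and 5.49 without tryptophan, from 3 to 13 reads per library. At this depth TFF2 was lower in both histidine-depleted libraries than in the untreated ones, and its tryptophan-depleted libraries overlapped the untreated ones. Without the filter TFF2 was also called lower after histidine depletion, which made 9 members.

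SPINK4 and REG4 were low under both depletions, and FCGBP was not. SPINK4 (chr9:33218365-33248567) had 638 and 639 normalized counts untreated, 9.03 and 29.5 without histidine and 20.3 and 11.9 without tryptophan. Its mean was 33.0-fold lower after histidine depletion and 39.9-fold lower after tryptophan depletion, with log2 fold changes of -5.18 ± 0.28 and -5.28 ± 0.17. Without histidine-depleted replicate 1 the first of these was -4.38, and without replicate 2 it was -5.98. REG4 (chr1:119794017-119811580) had 385 and 396 normalized counts untreated, 26.2 and 42.7 without histidine and 14.9 and 10.99 without tryptophan. Here the 3 conditions did not overlap and the tryptophan-depleted libraries were the lowest. REG4 was 11.3-fold lower after histidine depletion (log2 fold change -3.49 ± 0.18) and 30.3-fold lower after tryptophan depletion (-4.83 ± 0.20). FCGBP (chr19:39863323-39934626), whose product is a large mucus-bound protein, had 126 and 166 normalized counts untreated, 133 and 114 without histidine and 195 and 152 without tryptophan. These values overlapped between untreated and depleted libraries, with log2 fold changes of -0.22 ± 0.16 and 0.24 ± 0.14. FCGBP was called in the first comparison only without untreated replicate 1 (-0.42), and in the second only without tryptophan-depleted replicate 2 (0.42) or without untreated replicate 2 (0.44).

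AGR2 and AGR3 are neighbours on chromosome 7, at chr7:16791811-16833433 and chr7:16859412-16881987, both on the minus strand. AGR2 had 23982 and 24603 normalized counts untreated, 20158 and 20122 without histidine and 51239 and 51506 without tryptophan. The replicates were close, and the 3 conditions stood apart. AGR2 was 2.10-fold higher after tryptophan depletion (log2 fold change 1.07 ± 0.053) and 1.20-fold lower after histidine depletion (-0.26 ± 0.052). The latter is the smallest difference among the members called against untreated cells and was -0.53 after quantile normalization. AGR3 had 86.3 and 103 normalized counts untreated, 42.5 and 39.7 without histidine and 45.9 and 53.1 without tryptophan. AGR3 was thus low under both depletions, 2.30-fold below untreated after histidine depletion (log2 fold change -1.17 ± 0.20) and 1.93-fold below after tryptophan depletion (-0.93 ± 0.20). Under tryptophan depletion these neighbours moved in opposite directions, AGR2 up and AGR3 down.

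**Figure D2:**
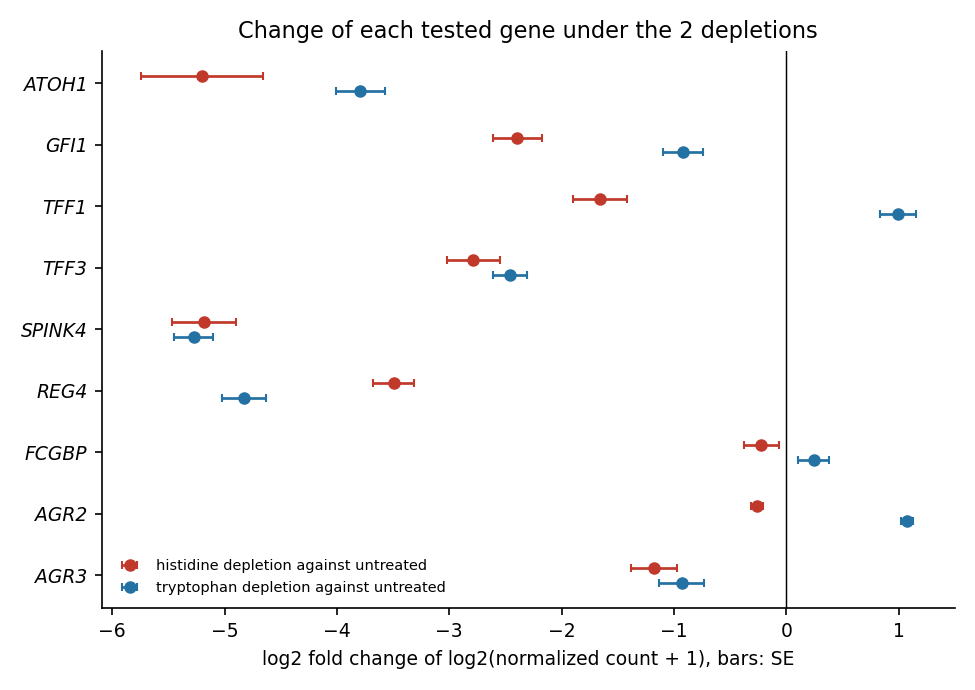
Log2 fold changes of the 9 tested members against untreated cells (horizontal axis, on log2(normalized count + 1), bars are SE) after histidine depletion (red) and tryptophan depletion (blue). TFF1 and AGR2 lie right of zero under tryptophan depletion, at 1.00 and 1.07, and left of zero under histidine depletion.

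The depletions were also set against each other, in a fit of the 4 depleted libraries alone on reads scaled over all 6 libraries. The base media of the depletions differ, so the missing amino acid and the medium cannot be told apart here either. Of the 9 tested members 4 were called lower under histidine than under tryptophan depletion (TFF1, GFI1, AGR2 and FCGBP), REG4 was called higher, and ATOH1, SPINK4, TFF3 and AGR3 were not called. Of all 18276 genes tested, 78.3% were called, 39.9% higher and 38.4% lower, and the groups did not overlap for 6 of the 9 members and for 88.8% of all genes. TFF1 was 6.58-fold lower under histidine depletion, with a log2 difference of -2.67 ± 0.18, and AGR2 was 2.55-fold lower (-1.35 ± 0.023). GFI1 was 2.88-fold lower, with a log2 difference of -1.49 ± 0.24, and REG4 was 2.66-fold higher (1.32 ± 0.33), from at most 74.7 and 42.7 normalized counts in these libraries. For FCGBP the difference was -0.48 ± 0.15, and the call was lost without histidine-depleted replicate 2 (-0.37), without tryptophan-depleted replicate 1 (-0.30) and in limma without the trend.

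For ATOH1, SPINK4 and TFF3 the direct difference turned with the histidine-depleted library that was left out. The ATOH1 difference was -1.42 ± 0.80, and it was 0.21 without histidine-depleted replicate 1 and -3.06, then called, without replicate 2. With the replicate number as a block the same -1.42 was called, though these numbers do not pair the samples by label. SPINK4 differed by 0.08 ± 0.49, by 0.88 without histidine-depleted replicate 1 and by -0.72 without replicate 2. TFF3 differed by -0.34 ± 0.39, by 0.31 without histidine-depleted replicate 1, by 0.15 without tryptophan-depleted replicate 1 and by -0.99, then called, without histidine-depleted replicate 2. No order of the depletions can be given for these 3 genes, and the wide SE does not show that they were equally low. AGR3 differed by -0.26 ± 0.21, with all its 4 values between 39.7 and 53.1 normalized counts.

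**Figure D3:**
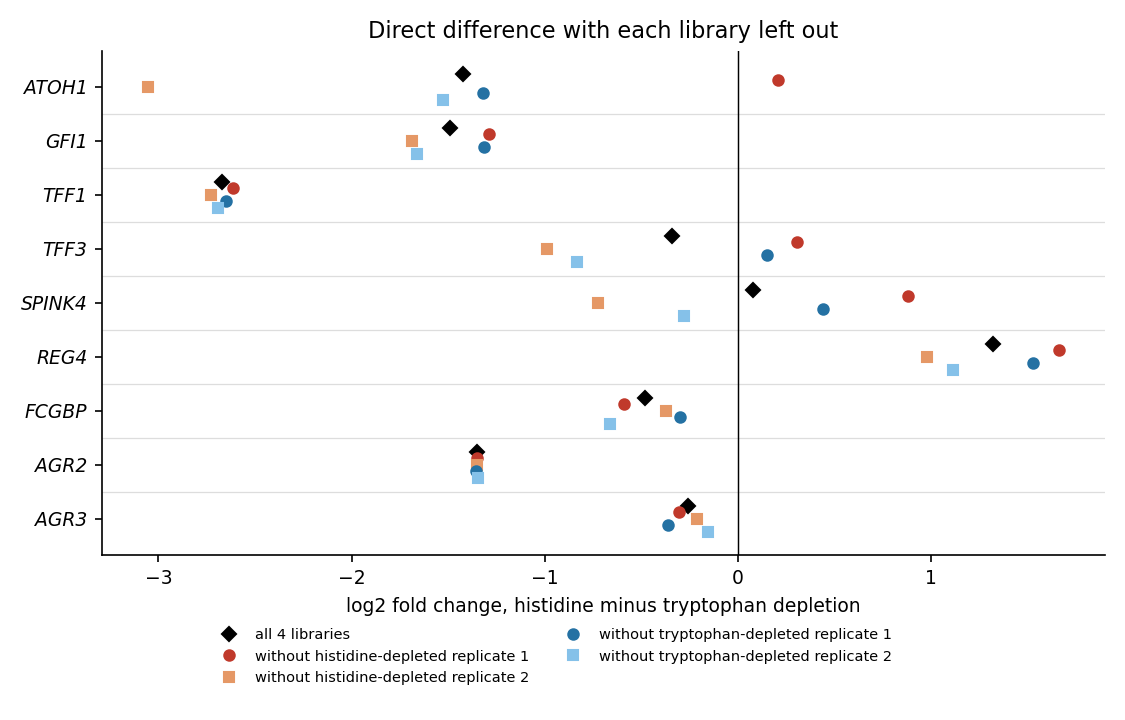
Log2 difference of histidine minus tryptophan depletion (horizontal axis) for the 9 tested members, with all 4 libraries (black diamonds) and without each library in turn (coloured). TFF1, GFI1, AGR2, AGR3 and FCGBP stay left of zero and REG4 right of it, while ATOH1 runs from -3.06 to 0.21 and SPINK4 from -0.72 to 0.88.

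Per length (RPKM, reads scaled by the annotated exon length and by the library total), the members covered a wide range in untreated cells. AGR2 was the highest at 171 ± 0.706 RPKM (SD, n = 2), above 99.0% of protein-coding genes with reads. SPINK4 followed at 19.0 ± 0.418 and TFF3 at 7.86 ± 0.433 RPKM, above 86.2% and 69.1% of those genes. TFF1 was at 3.33 ± 0.866, REG4 at 2.22 ± 0.0046, ATOH1 at 1.92 ± 0.275 and AGR3 at 1.60 ± 0.168 RPKM, and ATOH1 and AGR3 did not differ beyond their spread. GFI1 at 0.434 ± 0.0512, TFF2 at 0.309 ± 0.130 and FCGBP at 0.218 ± 0.0379 RPKM were the lowest, each within the spread of its neighbour. In GENCODE 0% of the exon bases of each member overlap exons of another gene on either strand. With the longest transcript as length, ATOH1 and AGR3 exchanged places and the other ranks held.

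The order changed under depletion. After histidine depletion AGR2 stayed first at 125 ± 0.773 RPKM, and TFF3 at 1.08 ± 0.652, TFF1 at 0.885 ± 0.0464, AGR3 at 0.610 ± 0.0322 and SPINK4 at 0.506 ± 0.378 RPKM followed. TFF3 and SPINK4 varied too much for a firm place among these, and with the longest transcript as length AGR3, at 0.953 RPKM, passed TFF1. REG4 at 0.173 ± 0.0578 and FCGBP at 0.163 ± 0.0184 RPKM did not differ beyond their spread, and TFF2 (0.0706 ± 0.00558), GFI1 (0.0703 ± 0.0138) and ATOH1 (0.0703 ± 0.0894) were last. After tryptophan depletion TFF1 rose to second place at 6.25 ± 0.143 RPKM behind AGR2 at 342 ± 0.432. TFF3 was at 1.42 ± 0.671, AGR3 at 0.789 ± 0.0795 and SPINK4 at 0.454 ± 0.168 RPKM, followed by FCGBP (0.246 ± 0.0440), GFI1 (0.217 ± 0.0376), TFF2 (0.199 ± 0.0769), ATOH1 (0.124 ± 0.0136) and REG4 (0.0698 ± 0.0152). FCGBP, GFI1 and TFF2 were within each other's spread. With the longest transcript GFI1 also passed TFF2 after histidine depletion and FCGBP after tryptophan depletion.

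Codon use was counted in the canonical coding sequences of GENCODE, since the medium lacked histidine or tryptophan. TFF1 has 84 codons, 0 for histidine (CAC or CAT) and 1 for tryptophan (TGG). SPINK4 and TFF3, with 86 and 80 codons, each have 1 of either kind, so their histidine shares of 1.16% and 1.25% lie below the median of 2.43% over 19755 genes. ATOH1 has 16 histidine codons of 354 (4.52%) and GFI1 has 22 of 422 (5.21%), shares above those of 93.4% and 95.9% of genes. REG4 has 7 tryptophan codons of 158 (4.43%), a share above that of 99.4% of genes. AGR2 and AGR3, at 2.29% and 2.41% histidine and 1.14% and 1.20% tryptophan codons, are near the medians of 2.43% and 1.13%. Cysteine codons made up from 4.43% in REG4 to 11.6% in TFF2 of the codons of 7 members (the trefoil genes, FCGBP, SPINK4, GFI1 and REG4), above the median of 2.02%, and 0.571% to 1.41% in AGR2, AGR3 and ATOH1, below it. Whether codon content goes with the changes in RNA was not tested.

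The genes around the members were described from 12 lists of 258 related genes. Some genes stand in several lists, so the counts of the lists are not independent. MUC2 is among both the other goblet cell genes and the mucins. GALNT12 and ST6GALNAC1 are among both the other goblet cell genes and the mucin O-glycosylation enzymes. For comparison, the median log2 fold change of all genes tested was 0.01 after histidine depletion, 0.01 after tryptophan depletion and 0.02 between the depletions. The counts of each list stand beside the shares of all genes, 39.1% higher and 38.2% lower after histidine depletion, 36.1% and 34.8% after tryptophan depletion, and 39.9% and 38.4% between the depletions, and a list near these shares shows nothing of its own. Of the secretory fate transcription factors other than ATOH1 and GFI1, 15 of 20 tested were lower and 4 higher after histidine depletion (median -1.25), and 12 of 20 were lower and 7 higher after tryptophan depletion (median -0.24). SPDEF, the goblet maturation factor, had 1479 and 1796 normalized counts untreated, 323 and 381 without histidine and 2182 and 2226 without tryptophan. SPDEF fell by 2.21 on the log2 scale after histidine depletion (limma, adjusted p = 6.9e-17) and rose by 0.43 after tryptophan depletion (adjusted p = 1.5e-11), the directions that TFF1 and AGR2 also had. HES6, MYB and HNF4A were, like ATOH1, lower under both depletions, with log2 fold changes of -2.17, -4.21 and -2.76 without histidine and -2.43, -2.52 and -1.33 without tryptophan. KLF4, a factor of goblet and other differentiated cells, was higher under both, by 2.97 and 1.99.

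The Notch genes upstream of ATOH1 did not move as a block. HES1, the repressor of ATOH1, had 1244 and 1373 normalized counts untreated, 1447 and 1534 without histidine and 2707 and 2581 without tryptophan. HES1 rose by 1.01 on the log2 scale after tryptophan depletion (limma, adjusted p = 8.3e-38), while the histidine difference of 0.20 (adjusted p = 0.0075) was not called without histidine-depleted replicate 2, without untreated replicate 1 or in limma without the trend. Of 8 tested ligands and receptors 5 were lower and 2 higher after histidine depletion, and 4 were lower and 2 higher after tryptophan depletion (medians -0.37 and -0.16). DLL1, a ligand that secretory cells present, went from 51.4 and 50.7 normalized counts to 3.61 and 7.12 without histidine and to 3.20 and 3.66 without tryptophan (log2 fold changes -3.08 and -3.56). JAG1, another ligand, rose by 0.98 and 1.84, and the receptor NOTCH3 rose by 2.63 after histidine depletion, with -0.01 (adjusted p = 0.98) after tryptophan depletion. Of the proteases, modifiers and nuclear partners, 8 were higher and 13 lower of 26 tested after histidine depletion, and 13 higher and 7 lower of 27 after tryptophan depletion (medians -0.12 and 0.09). Among target repressors 4 of 6 were higher and 2 lower after histidine depletion (median 0.82), and 3 of 7 were higher and 2 lower after tryptophan depletion (median -0.21).

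**Figure D4:**
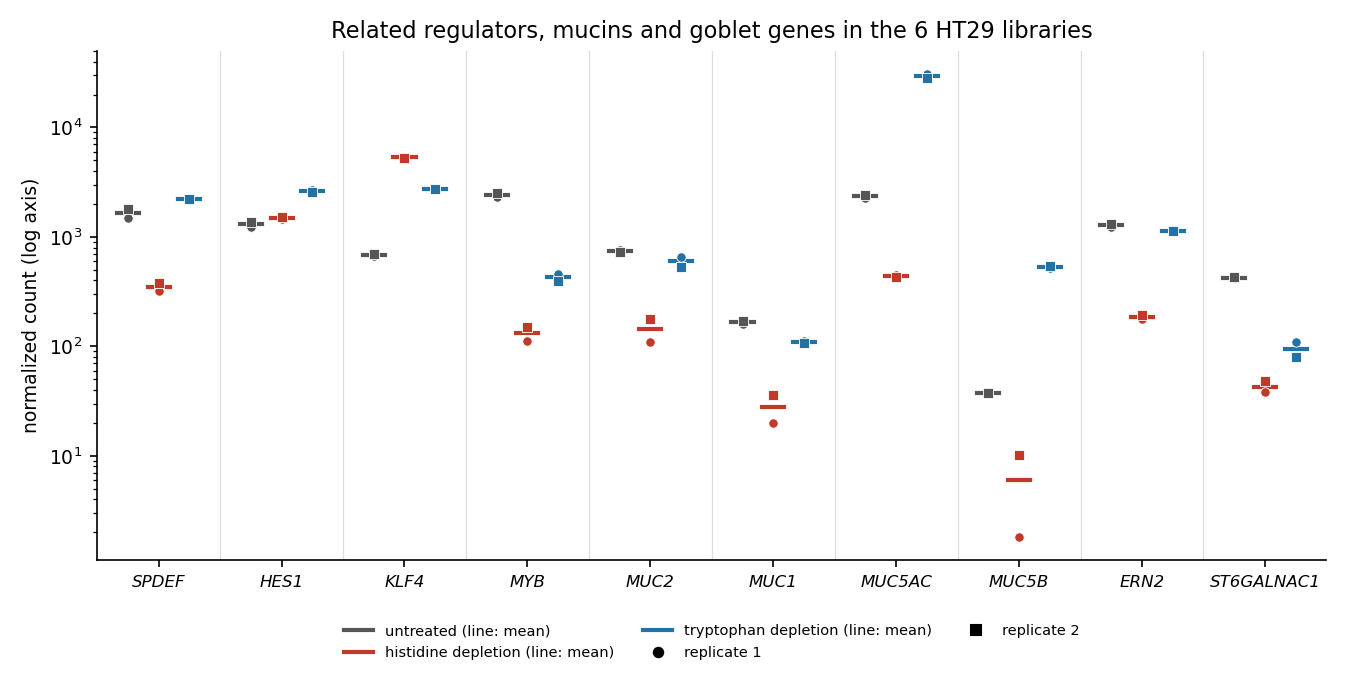
Normalized counts (log axis) of regulators, mucins and other goblet genes in the 6 libraries, drawn as in the plot of the members. MUC5AC and MUC5B are below untreated after histidine depletion and above it after tryptophan depletion, while MYB and ST6GALNAC1 are low under both.

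Of the other goblet cell genes 23 of 30 tested were lower and 4 higher after histidine depletion (median -0.99). After tryptophan depletion 14 of 31 were lower and 12 higher (median -0.15), near the shares of all genes. ST6GALNAC1, the enzyme that sialylates goblet mucin, was lower under both depletions like SPINK4 and REG4, with log2 fold changes of -3.28 and -2.18. ERN2, the endoplasmic reticulum stress sensor of goblet cells, fell by 2.76 after histidine depletion (limma, adjusted p = 5e-19). After tryptophan depletion its log2 fold change was -0.16 (limma, adjusted p = 0.012). Of the 11 tested mucins 7 were lower and 1 higher after histidine depletion (median -1.43), and 6 were lower and 5 higher after tryptophan depletion (median -0.33). MUC2, the main mucin of the colon, had 762 and 728 normalized counts untreated, 109 and 178 without histidine and 662 and 537 without tryptophan, with log2 fold changes of -2.40 and -0.33. MUC5AC, a gastric mucin secreted along with TFF1 in the stomach, had 2279 and 2441 normalized counts untreated, 452 and 434 without histidine and 30848 and 28098 without tryptophan, and its log2 fold changes of -2.40 and 3.63 had the signs of those of TFF1. MUC5B likewise had -2.77 and 3.79, from 37.2 and 37.8 normalized counts untreated, 1.81 and 10.2 without histidine and 522 and 546 without tryptophan. Its histidine value was -1.78 without histidine-depleted replicate 1 and -3.77 without replicate 2. Of the mucin O-glycosylation enzymes 15 of 27 were lower and 8 higher after histidine depletion (median -0.23), and 9 of 28 were lower and 15 higher after tryptophan depletion (median 0.17).

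Between the depletions, 14 of 19 secretory factors were lower under histidine than under tryptophan depletion and 4 higher (median -1.01), beside 38.4% lower and 39.9% higher over all genes. Of the other goblet genes 20 of 29 were lower and 6 higher (median -1.41), of the mucins 8 of 11 lower and 1 higher (-1.66), and of the glycosylation enzymes 19 of 27 lower and 4 higher (-0.35). Most other lists also had more genes lower than higher, so this was not particular to the secretory, goblet and mucin lists. Of absorptive colonocyte genes 7 of 10 were lower and 0 higher (median -0.64), and of epithelial markers 7 of 10 lower and 3 higher (-0.58). Of tuft cell genes 6 of 11 were lower and 5 higher (-1.39), and of Paneth cell genes 3 of 5 lower and 2 higher (-1.465). Of Notch proteases, modifiers and nuclear partners 17 of 26 were lower and 8 higher (-0.36). Of Notch target repressors 5 of 7 were lower and 2 higher (-0.46), and of ligands and receptors 4 of 7 lower and 1 higher (-0.29). Relatives of the members were even, with 1 of 4 lower and 1 higher (0.11). Enteroendocrine genes went the other way, with 1 of 7 lower and 4 higher (0.35). SPDEF (-2.65), MUC2 (-2.09) and ERN2 (-2.61) were among the lower genes, whereas SPINK4, TFF3 and ATOH1 were not called in the same comparison.

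Of 17 relatives in the families of the members, 4 were expressed highly enough to be tested. After histidine depletion 2 of them were higher and 2 lower (median -0.92), and after tryptophan depletion 1 was higher and 3 lower (median -0.96). The tested relatives that are not named here were lower in both comparisons, as most members were. SPINK1, a secreted trypsin inhibitor of the SPINK4 family, had 6068 and 6870 normalized counts untreated and 18133 and 18035 after tryptophan depletion, a rise of 1.48 where SPINK4 was lower by 5.28. After histidine depletion SPINK1 had a log2 fold change of 0.17 that turned to -0.041 with quantile normalization. TXNDC12, a relative of AGR2 and AGR3 in the endoplasmic reticulum, had log2 fold changes of 0.34 and -0.29, opposite in sign to those of AGR2. REG1A and REG1B, relatives of REG4, had 0 reads in every library, and GFI1B was at or under 3.05 normalized counts.

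Markers of the other intestinal cell types were described in the same way. Of enteroendocrine genes 6 of 10 tested were lower and 3 higher after histidine depletion, and 6 of 10 were lower and 1 higher after tryptophan depletion (medians -1.03 and -0.85). Of Paneth cell genes 3 of 5 were lower and 2 higher, and 2 of 5 lower and 1 higher (medians -1.90 and -0.19). LYZ, the lysozyme that Paneth cells release, was lower under both depletions by log2 fold changes of -2.31 and -0.82. MMP7, the protease that activates defensins in mouse Paneth cells, went the other way, from 3913 and 4156 normalized counts untreated to 15121 and 15054 without histidine (a rise of 1.91), and was at 4388 and 4292 without tryptophan (0.10, limma, adjusted p = 0.059, called without untreated replicate 2 and in edgeR). PRSS2, a trypsinogen gene that may share reads with its near-identical relatives, had log2 fold changes of 0.83 and 0.24, the latter not called without tryptophan-depleted replicate 1 or in DESeq2. Of tuft cell genes 5 of 11 were lower and 4 higher, and 2 of 9 lower and 6 higher (medians -0.10 and 0.46). Of absorptive colonocyte genes 8 of 12 were lower and 2 higher, and 4 of 13 lower and 6 higher (medians -0.27 and 0.08). KRT20, a keratin of mature colonocytes and one of the 2 that were higher after histidine depletion, rose by 1.74 and 2.38 on the log2 scale.

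**Figure D5:**
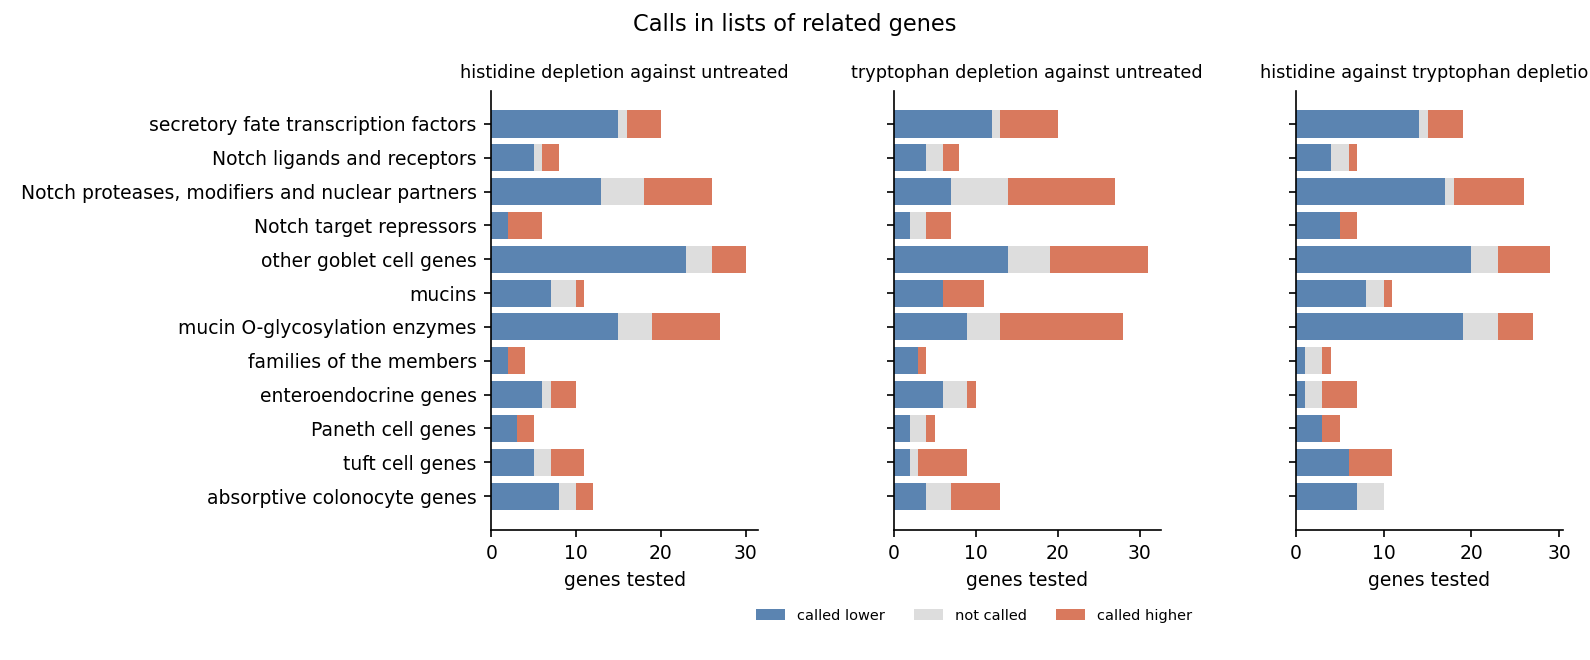
Number of tested genes of each list (horizontal axis) called lower (blue), not called (grey) and called higher (red) in each comparison. The list of other goblet cell genes has 23 of 30 lower after histidine depletion and 14 of 31 lower with 12 higher after tryptophan depletion.

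Genes within 200 kb of the clustered members moved in both directions. Next to the trefoil genes, ABCG1, a sterol exporter, rose by 0.71 after histidine depletion and by 1.50 after tryptophan depletion, and RSPH1, a gene of motile cilia, fell by 1.06 after histidine depletion. In all, 3 of the 4 tested neighbours of the trefoil genes were lower after histidine depletion, as TFF1 and TFF3 were, and ABCG1 was the one higher. The other two were SLC37A1 (-0.23) and TMPRSS3 (-1.03), the latter not called with DESeq2, without histidine-depleted replicate 2 or without untreated replicate 2. After tryptophan depletion 2 of the 4 were higher and 1 lower, of which TMPRSS3 was no longer called higher without tryptophan-depleted replicate 2 nor RSPH1 lower without replicate 1. Next to AGR2 and AGR3, TSPAN13 rose by 1.01 and 0.74 and AHR, a ligand-activated receptor whose ligands include tryptophan metabolites, rose by 0.60 and 0.59 (limma, adjusted p = 5.1e-10 after histidine depletion). Of the 4 tested neighbours there, 3 were higher and BZW2 (-0.19) lower after histidine depletion, BZW2 being called neither without histidine-depleted replicate 2 nor in limma without the trend, and 2 were higher and 2 lower after tryptophan depletion.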

How the data were processed

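RNA-seq libraries of HT29 cells under 3 conditions, 2 per condition, were used. Per the labels and the methods, polyadenylated RNA was sequenced in stranded libraries carrying molecular identifiers, and the authors aligned reads with STAR 2.7.10a to GRCh38, counted exonic reads with HTSeq 2.0.5 on GENCODE release 38 and divided the counts by DESeq2 size factors. How identifiers, strand and reads mapping to several places were treated is not given in the sources used here. The deposited values are thus normalized counts (a non-negative signal), with both tables holding the same untreated libraries. The tables were normalized separately, so each comparison with untreated cells stayed in its own table.

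Every deposited value was a whole multiple of a step per library (100% within 0.001), which gave the reads. For values over all 6 libraries, and for the comparison between the depletions, reads were scaled jointly by median-of-ratios size factors. GENCODE release 44 matched 60357 of 60676 identifiers. Genes with a mean of at least 10 were tested with limma 3.58.1 (R 4.3.3, trend, two-sided) on log2(normalized count + 1), and a gene was called at a Benjamini-Hochberg adjusted p under 0.05 over all genes tested. The pseudocount draws changes of low genes toward 0, but where the libraries of a group differ, a mean of logs can also exceed the log of the ratio of means, as for ATOH1, SPINK4 and TFF3 after histidine depletion, whose changes were smaller in edgeR and DESeq2. Groups of 2 libraries allow no exact permutation p below 0.333, so none was run.

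The members and lists were chosen with earlier results of these data known. Named genes other than members are list genes among the 3 most changed per list and comparison (mean of at least 100 in the higher group, no overlap), genes fixed by name, markers, and neighbours within 200 kb. The alternatives tried were other pseudocounts (0.5 and 8), dropping the filter or raising it to 50, limma without trend, quantile normalization, edgeR 4.0.16 and DESeq2 1.42.0 on the reads, the replicate number as a block, fitting all 6 libraries together, a log2 limit of 1, another transcript length and each library left out. The code was tested on simulated data. Plots were made with matplotlib 3.10.9 and tables with pandas 2.3.3 and numpy 2.4.6 under Python 3.11.15. The E-box, N-box and other motifs were searched in 250 bases before each RefSeq start. A marker that was looked at is not reported here.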

Additional observations from a re-analysis of the deposited data

How the results depend on the processing

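The fold changes of the 9 tested members against untreated cells kept their direction under every alternative run, and 12 of 391 alternative values of members moved by more than the replicate spread. With a log2 limit of 1, members called higher after tryptophan depletion went from 2 to 1 (AGR2), and AGR2 after histidine depletion, AGR3 and GFI1 after tryptophan depletion and FCGBP between the depletions were no longer called. The same limit left 20 of 44 related genes higher and 64 of 101 lower after histidine depletion, 30 of 72 higher and 32 of 68 lower after tryptophan depletion, and 16 of 38 higher and 60 of 102 lower between the depletions. Dropping the filter added TFF2 to the members called lower after histidine depletion (9 in place of 8). A mean of at least 50 left no member called higher between the depletions (0 in place of 1), because REG4 was not tested there, nor were ATOH1, SPINK4, AGR3 and GFI1. SPINK4 differed between the depletions by -0.28 without tryptophan-depleted replicate 2 and by -0.024 after quantile normalization. SPINK1 turned to -0.041 after histidine depletion with quantile normalization, and the cause was not tested. Of 1913 alternative values of named related genes, 93 lost and 13 gained a call. The replicate numbers do not pair the samples by label, and deviations of same-numbered libraries correlated by 0.11, -0.02 and -0.05 over 13913 genes. With the number as a block, 5 members instead of 4 were called lower between the depletions, ATOH1 being added, and 8 and 6 were called lower against untreated as without it. Low members rest on few reads, down to 1 for ATOH1 and 3 for TFF2.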
